A study of Mus musculus with 4 samples.

Results

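The cells described here are the C1q and Mrc1 high range of in vitro generated myeloid-derived suppressor cells (MDSCs), chosen by 5 genes: C1qa, C1qb and C1qc, the 3 chains of the complement component C1q, Mrc1, the mannose receptor CD206, and Pf4, a CXC chemokine made by platelets and by some macrophages. Barcodes with at least 200 detected genes and at most 10% of their unique molecular identifiers (UMIs, one per captured transcript) from mitochondrial genes were kept, each cell was scaled to 10000 UMIs, and the score was the mean of the log-transformed values of the 5 genes. The 8% of kept cells with the highest score were taken over the 4 libraries together, which gave 744 cells of 9303. The values of these 5 genes chose the cells, so their levels are given as a description.

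The study asked what β-adrenergic signaling does to MDSCs. Bone marrow cells of wildtype (WT) C57BL/6J mice, 6 to 10 weeks old, were cultured for 4 days with IL-6 and GM-CSF at 40 ng/mL each, and live CD11b+ cells were sorted for droplet single-cell RNA sequencing. Isoproterenol (ISO), a β-adrenergic agonist, was given daily at 10 µM in WT+ISO, and PBS in WT+PBS. The other 2 libraries entered the choice of cells and the pooled values and are not reported on their own, so WT+PBS gave 18.4% and WT+ISO 6.18% of the chosen cells. Values given without a library, such as levels against all other kept cells and the C1q split, are pooled. For the chosen cells they come mostly from the other 2 libraries and are not values of WT cells alone. All libraries shared the cytokines, the sort and 1 capture of tagged, pooled cells, and each group was 1 library, so no difference between groups has a replicate check and no test was made. Intervals are exact 95% intervals that cover counting error only, and cells vary by more than counting error.

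Macrophages of many tissues make C1q themselves, since the 3 chains are transcribed together in the mononuclear phagocyte lineage and not mainly in the liver. C1q opens the classical complement pathway and also tags dying cells for uptake. The mannose receptor binds glycans ending in mannose and marks tissue-resident and alternatively activated macrophages, and cultures of bone marrow with GM-CSF are known to give macrophages, dendritic cells and granulocytes side by side. Signals of β-adrenergic agonists run through cyclic AMP, which restrains several inflammatory genes in macrophages.

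The promoters of 4 of the 5 score genes are shown because these genes picked out the cells together. Each run is 250 bases before to 50 bases after the start that the RefSeq promoter table gives on GRCm38.p6, which for C1qc lies inside the span of the gene rather than at its end, 5′ to 3′ on the strand of the gene: C1qb chr4:136886151-136886450 (minus strand), C1qc chr4:136892865-136893164 (minus strand), Mrc1 chr2:14229164-14229463 (plus strand) and Pf4 chr5:90772185-90772484 (plus strand). Capitals mark AGGAAGT, the core of the sites of ETS factors such as PU.1, read on either strand, or the 8 letters GAGGAAGT where these are complete; in all 4 the letters lie on the opposite strand and so appear as the reverse complement.
C1qb: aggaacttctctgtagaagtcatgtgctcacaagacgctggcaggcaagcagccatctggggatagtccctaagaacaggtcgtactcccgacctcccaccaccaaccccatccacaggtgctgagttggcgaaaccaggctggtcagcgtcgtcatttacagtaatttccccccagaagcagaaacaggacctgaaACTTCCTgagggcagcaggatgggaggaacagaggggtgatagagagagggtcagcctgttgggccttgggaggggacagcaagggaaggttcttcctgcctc
C1qc: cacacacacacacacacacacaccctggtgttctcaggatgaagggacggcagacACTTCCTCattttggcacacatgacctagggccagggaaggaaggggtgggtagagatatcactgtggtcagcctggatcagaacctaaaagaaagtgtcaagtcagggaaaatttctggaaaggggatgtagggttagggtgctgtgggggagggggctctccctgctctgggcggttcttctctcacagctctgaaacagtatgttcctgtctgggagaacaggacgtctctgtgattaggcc
Mrc1: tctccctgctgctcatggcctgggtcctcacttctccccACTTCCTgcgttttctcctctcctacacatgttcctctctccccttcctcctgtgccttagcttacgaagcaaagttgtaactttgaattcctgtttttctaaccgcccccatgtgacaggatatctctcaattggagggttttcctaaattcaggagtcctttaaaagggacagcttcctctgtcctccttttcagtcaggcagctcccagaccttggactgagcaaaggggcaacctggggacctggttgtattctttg
Pf4: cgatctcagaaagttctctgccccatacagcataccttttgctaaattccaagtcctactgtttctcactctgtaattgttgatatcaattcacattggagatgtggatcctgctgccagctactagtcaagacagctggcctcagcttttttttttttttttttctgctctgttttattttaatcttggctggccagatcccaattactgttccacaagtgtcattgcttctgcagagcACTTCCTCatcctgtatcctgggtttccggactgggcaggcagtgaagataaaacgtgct
GAGGAAGT stood in the promoters of C1qc and Pf4 and in 3.20% of 32851 promoters searched. The shorter AGGAAGT, which overlaps it and was chosen after the promoters were read, stood in all 4 and in 9.35% of all promoters. TGCTGA, the other motif searched from the start, stood once, in the promoter of C1qb at -131 to -126, and in 19.5% of all promoters. These are letter matches and not binding sites. Spi1, which encodes PU.1, measured 401 and 418 UMIs per 1000000 (CPM) in the chosen cells of WT+PBS and WT+ISO, a log2 ratio of 0.06 with an interval of -0.13 to 0.25.

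Over all chosen cells pooled, Mrc1 led the score and C1q did not. Mrc1 had a UMI in 90.1% of the chosen cells, Pf4 in 41.7%, C1qb in 35.1%, C1qc in 25.1% and C1qa in 15.3%. In azurophil granule cells, an early neutrophil range that should lack these transcripts, the shares were 4.03%, 5.38%, 0.134%, 0% and 0.403%, although those cells were deeper, at a median of 23791 UMIs against 12713.5. The 0 of C1qc among those 744 cells allows a share of up to 0.495% with a UMI. After each cell was thinned to 2000 UMIs, which left out 16 chosen cells and 8 azurophil granule cells, Mrc1 had a UMI in 62.0% of the chosen and 0.408% of the azurophil granule cells and C1qb in 18.7% and 0.136%. The score chose the cells for these genes, so the gap is fixed by the choice. Of the chosen cells 460 (61.8%) held no C1q UMI, and in 288 cells Mrc1 was the only score gene seen. By library, Mrc1 had a UMI in 86.9% of the chosen cells of WT+PBS and 73.9% of those of WT+ISO, and Pf4 in 35.0% and 60.9%. After thinning the shares were 58.3% and 42.2% for Mrc1 and 13.6% and 44.4% for Pf4. Mrc1 thus led in WT+PBS but not in the thinned cells of WT+ISO.

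The cut ran through a continuous score. Of all kept cells 86.7% scored 0, the lowest chosen cell scored 0.2303 and the highest cell left out 0.2295, with 18 chosen cells within 10% above the cut and 41 other cells within 10% below it. A median of 10 UMIs of the 5 genes stood behind a chosen cell, and 48 cells (6.45%) rested on 1 or 2. The chosen cells are thus described as a range of a score, and whether they hold a separate type was not tested. Cells with at least 3 C1q UMIs, called C1q-positive here, numbered 207 (27.8%), and 537 chosen cells were C1q-low. Outside the range, 5 cells held 3 or more C1q UMIs, a count that the choice of cells by C1q fixes in large part.

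The label of macrophage was checked against 22 identity genes that the score did not use. Of these, 17 were at least 2-fold higher in the chosen cells than in all other kept cells, and 3 were at least 2-fold lower, and their summed level was 1158 CPM against 341 CPM. By the same rule 17.8% of all genes with a UMI were higher and 27.1% lower. With at least 100 UMIs in both sets of cells together, 10 of 12 identity genes were higher and none lower, where 12.5% and 7.37% of all genes were. The 5 score genes were left out of these shares, and since the score set the cells apart nothing is read from them. Csf1r, the receptor for M-CSF, measured 223 against 60.9 CPM, Adgre1, which encodes F4/80, 162 against 59.5 CPM, Trem2, a lipid-sensing receptor, 214 against 37.2 CPM, and Cd68, the most abundant of the list, 244 against 117 CPM. Of genes known from resident macrophages, Lyve1, Timd4 and Vsig4 had no UMI in 744 cells, Cd163 had 5, Siglec1 5, Folr2 7 and Cd5l 1. In cells high in MHC class II without C1q the same 22 genes summed to 915 CPM, and Csf1r measured 194 CPM, Adgre1 159 CPM, Cd68 240 CPM and Trem2 178 CPM. These 4 markers thus set the chosen cells apart from the rest of the culture but little from that range. The name macrophage is used here for the score and these markers, and the genes of resident macrophages were not seen or nearly so at this depth. The monocyte list went both ways: of 9 genes 5 were at least 2-fold higher than in the rest and 4 at least 2-fold lower. Its sum was 2888 CPM against 2905 CPM in the rest. Ccr2 and Fn1, genes of monocytes that leave the marrow, were 4.28-fold and 8.47-fold higher than in the rest, while Ly6c2 was 3.08-fold lower.

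Other cell types were checked in the same way. Of 12 dendritic cell genes 5 were at least 2-fold higher than in the rest, namely Itgax, Irf4, Batf3, Zbtb46 and Cd209a, and 3 at least 2-fold lower, where 17.8% and 27.1% of all genes were. With at least 100 UMIs in both sets of cells together, 4 of 7 were higher and 1 lower, where 12.5% and 7.37% of all genes were. The list summed to 217 CPM against 64.1 CPM in the rest and 493 CPM in cells high in MHC class II without C1q. Itgax, which encodes CD11c, was the most abundant, at 127 CPM against 14.5 CPM in the rest and 83.0 CPM in the MHC class II range. Flt3 measured 0.407 CPM against 0.653 and 8.43 CPM, and Ccr7, of migrating dendritic cells, 8.65 CPM against 11.7 and 166 CPM. The 5 erythroid genes had 0 UMIs, 6 lymphoid genes summed to 3.77 CPM and 8 genes of eosinophils, basophils and mast cells to 2.85 CPM. Of 5 megakaryocyte genes Ppbp was the most abundant with 40 UMIs, in 1.48% of the cells, so Pf4 was not accompanied by the platelet genes in most cells. Neutrophil transcripts were present: 13 genes of later neutrophils summed to 12159 CPM, with S100a8 in 100% of the cells, against 148100 CPM in the rest, and 12 of the 13 were at least 2-fold lower than in the rest, where 27.1% of all genes with a UMI were. The median chosen cell held 38.5 of these UMIs per 10000 and the median other cell 1626. At 5% or more of its UMIs, 41 chosen cells (5.51%) carried these or the azurophil genes, against 74.5% of the other cells. Without the 41 chosen cells 32 genes were at least 2-fold higher and 42 at least 2-fold lower with ISO in WT, beside 35 and 47 with them.

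**Figure D1:**
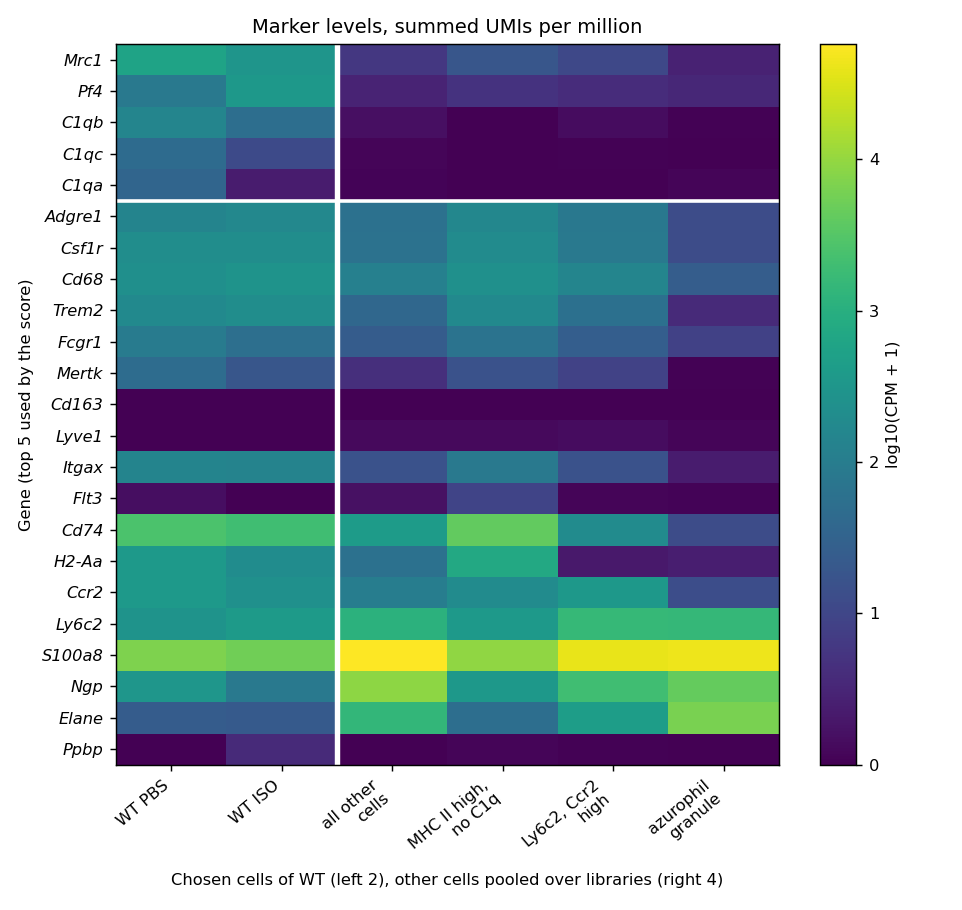
Levels of 23 genes, as log10(CPM + 1) of summed UMIs, in the chosen cells of WT+PBS and WT+ISO (left 2 columns) and in all other kept cells and 3 comparison ranges pooled over libraries (right 4 columns); the top 5 genes were used by the score. Csf1r, Adgre1, Cd68 and Trem2 are close between the WT libraries, Lyve1 is at 0 in both, and S100a8 and Elane are lower than in the rest.

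The libraries were checked before they were compared. WT+PBS held 24393687 UMIs in 2210 kept cells and WT+ISO 29400468 in 2264, and no barcode was shared between libraries. The chosen cells had more UMIs than the others in both: their medians were 14542 and 16002.5 against 7545 and 10061. A median chosen cell held 3868 genes with PBS and 4133 with ISO, and mitochondrial genes took 2.99% and 3.07% of its UMIs. The sample tag of its own library led in all kept WT cells, and it held under 90% of tag UMIs in 7.30% of the chosen cells of WT+PBS and in 0% of those of WT+ISO.

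The range took a smaller share of cells with ISO. It held 137 of 2210 cells in WT+PBS (6.20%, interval 5.23 to 7.29) and 46 of 2264 in WT+ISO (2.03%, 1.49 to 2.70), a 3.05-fold lower share. The intervals of the 2 treatments did not overlap, and the log2 ratio was -1.61. Without Mrc1 in the score the log2 ratio was -0.82, and without Pf4 it was -2.02. Shares of a sorted, fixed total cannot tell fewer of these cells from more of the others.

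C1q-positive cells were 1.58% (1.11 to 2.20) of kept cells in WT+PBS and 0.177% (0.0482 to 0.452) in WT+ISO, which is 35 and 4 cells. The share was 8.96-fold lower with ISO (2.45 to 45.6). C1q-low cells were 4.62% and 1.86% of kept cells, a 2.49-fold lower share (1.51 to 4.16), and these intervals overlapped that of the C1q-positive cells. Within the range the C1q-positive share was 25.5% (18.5 to 33.7) with PBS and 8.70% (2.42 to 20.8) with ISO, and these intervals overlapped. C1qb in the chosen cells measured 145 and 51.1 CPM, C1qa 34.4 and 1.34 CPM, and C1qc 45.7 and 10.7 CPM. In WT+ISO C1qa was seen as 1 UMI. These genes chose the cells, so their levels describe the choice. Mrc1 measured 586 and 308 CPM, whereas Pf4 went the other way, with 81.7 and 351 CPM.

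Other ranges of the same cultures differed in other ways. Cells high in MHC class II without C1q were 11.4% of WT+PBS and 3.18% of WT+ISO, a 3.59-fold lower share beside 3.05-fold for the chosen cells. Cells high in Ly6c2 and Ccr2, a monocyte range, were 7.60% and 7.11%. Azurophil granule cells went from 8.42% with PBS to 13.3% with ISO.

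**Figure D2:**
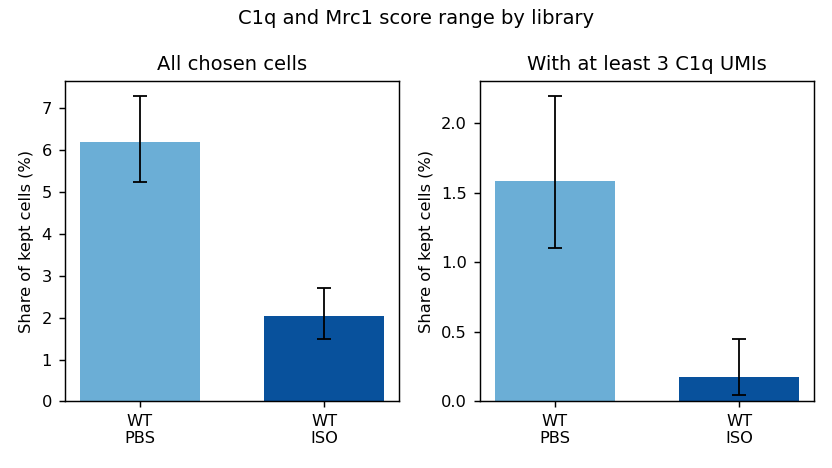
Share of kept cells in WT+PBS and WT+ISO that fell in the C1q and Mrc1 range (left) and that also held at least 3 C1q UMIs (right), in percent, with exact 95% binomial intervals that cover counting error only. Bars stand at 6.20 and 2.03% on the left and at 1.58 and 0.177% on the right.

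The genes most raised over the rest are described and not tested, since the score genes chose the cells. Asgr2, a galactose-binding lectin, was 21.4-fold higher in the chosen cells than in the rest (272 against 12.7 CPM) and Mertk, a receptor for the uptake of dying cells, 20.9-fold higher (71.9 against 3.44 CPM). Axl, of the same receptor family, was 9.88-fold higher, Msr1, the class A scavenger receptor, 8.22-fold higher and Abca1, the cholesterol exporter, 13.6-fold higher. Of 15 genes of phagocytosis and efferocytosis 12 were at least 2-fold higher, beside 17.8% of all genes with a UMI. The matrix proteases Mmp12 and Mmp14 were 12.5-fold and 10.8-fold higher, with a UMI of Mmp12 in 90.2% of the cells. Dcstamp, needed for the fusion of macrophages, was 12.9-fold higher. Among the genes with the largest folds were also Tnfaip8l3, Fcrls, Dst, Sdc3, Slc7a2, Arhgap6, Apbb2, Ccnd1, Rnf150, Pdpn, Plxnb2 and Plxdc2.

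Lists were also set against another range of the cultures. Against cells high in MHC class II without C1q, 11 of 22 identity genes and 8 of 15 phagocytosis genes were at least 2-fold higher and 8 of 12 dendritic cell genes at least 2-fold lower, where 12.9% of all genes with a UMI were higher and 15.7% lower. With at least 100 UMIs in both ranges together these counts were 5 of 12, 5 of 10 and 5 of 7, where 1.73% of all genes were higher and 2.67% lower. The score of the one range and the lack of C1q in the other chose these cells, so the counts are a description. Mertk was 71.9 against 14.7 CPM there and Fn1 739 against 301 CPM. MHC class II presentation summed to 4166 CPM in the chosen cells, 7024 CPM in that range and 793 CPM in all other kept cells. The 10 genes of heme and iron summed to 43139 CPM against 24653 CPM in the rest and 33768 CPM in the MHC class II range, against which 1 of the 10 was at least 2-fold higher and 2 lower, and Fth1 was the most abundant. The 18 lysosome genes summed to 8126 CPM against 3938 and 5944 CPM, with 1 of the 18 at least 2-fold higher than in the MHC class II range, and Psap, the precursor of the saposins, led them. In alternative activation the list went both ways, since Msr1 was 8.22-fold higher and Chil3, a chitinase-like protein also made by neutrophil progenitors, 11.7-fold lower than in the rest, while Retnla had no UMI.

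The 2 layers of the range differed beyond C1q. Asgr2 was 5.87-fold higher in C1q-positive than in C1q-low cells, Aif1, an actin-binding protein of macrophages, 4.70-fold, Fcrls, an Fc receptor-like gene, 3.80-fold and Mgl2, a galactose lectin, 3.16-fold. MHC class II genes followed: H2-Aa was 3.59-fold and H2-Eb1 3.28-fold higher, and Ccl17, a chemokine for T cells, 2.99-fold higher. Higher in C1q-low cells were Camp (3.99-fold), Prtn3 (3.30-fold), Hp (2.73-fold) and Vcan (2.58-fold), genes of granules, of the acute phase and of classical monocytes. Camp had a UMI in 33.3% of C1q-positive and 34.6% of C1q-low cells and Prtn3 in 28.0% and 28.9%, so for these the levels differed while the shares of cells with a UMI were close. These values are a description, because C1q took part in both the score and the split. ISO and PBS are compared below in the whole range. Any such ratio also carries the change in the C1q-positive share and in the shares of cells with Mrc1 and with Pf4.

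In the WT range, the Nrf2 targets Gclm, Hmox1 and Prdx1 were at least 2-fold higher with ISO. Asgr2, Tgm2, Mgl2, Mertk and Fn1 were at least 2-fold lower. The ferritin genes Fth1 and Ftl1 were higher by less than 2-fold. UMIs of the chosen cells were summed per library and given as CPM. Of 4223 genes with at least 100 UMIs in the 2 WT libraries, 35 were at least 2-fold higher with ISO (0.829%) and 47 at least 2-fold lower (1.11%). The median gene stood at a log2 ratio of 0.05. The WT+ISO side rests on 46 cells, 744204 UMIs in all against 1946726 in WT+PBS. Gene lists were drawn up with earlier results of these data known and are described by counts and medians.

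Targets of Nrf2, the transcription factor of the antioxidant response, had the largest ratio of list sums, at 1.23. This rank is among lists with at least 3 measured genes and for the main choice of cells. With the top 8% taken in each library the later neutrophil, cell cycle and alternative activation sums stood higher, at 1.74, 1.00 and 0.84. Of 7 Nrf2 targets measured, 3 were at least 2-fold higher with ISO (Gclm, Hmox1 and Prdx1) and none was lower. All 7 stood above 0, with a median log2 ratio of 0.88, and the list sum went from 2363 to 5547 CPM. The ratio of sums lay between 0.47, with the top 8% taken in each library, and 1.85, among C1q-positive cells, in the repeats with other choices of cells or scaling. Prdx1, peroxiredoxin 1 and the most abundant of the list, measured 1304 CPM in WT+PBS and 3285 CPM in WT+ISO, a log2 ratio of 1.33 (1.25 to 1.41). In WT+ISO 1 cell gave 15.1% of its UMIs. Per cell, the median was 11.4 UMIs per 10000 with PBS and 22.2 with ISO, and the quartile ranges of the cells overlapped, at 7.70 to 16.2 and 14.9 to 34.7.

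Gclm, the regulatory subunit of the enzyme that limits glutathione synthesis, measured 139 and 507 CPM with PBS and ISO, a log2 ratio of 1.86 (1.63 to 2.09). Hmox1, heme oxygenase 1, measured 155 and 493 CPM, a ratio of 1.67 (1.44 to 1.89). The same direction was seen outside the range, where Gclm stood at 0.92 and Hmox1 at 1.00 in all other cells of WT, while Prdx1 stood at 0.07 there. Prdx1 stood at 0.53 in WT cells high in MHC class II without C1q and at 0.61 in those high in Ly6c2 and Ccr2. Slc7a11, the cystine importer, measured 369 and 594 CPM and Txnrd1, thioredoxin reductase, 124 and 227 CPM. Gstm1, a glutathione transferase, measured 38.5 and 133 CPM (1.79, 1.34 to 2.24).

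Heme and iron genes stood in the same direction. Of 5 heme and iron genes measured, 2 were at least 2-fold higher with ISO (Hmox1 and Slc48a1, a heme transporter) and all 5 stood above 0, with a median of 0.96. The ratio of the list sum was 0.75, but 0.14 with the top 8% taken in each library and 1.02 among C1q-positive cells. Fth1, the ferritin heavy chain, measured 31348 CPM in WT+PBS and 51189 CPM in WT+ISO. Its log2 ratio was 0.71, and the light chain Ftl1 gave 0.83, against 0.18 and 0.31 in all other cells of WT. Neither ferritin gene passed 2-fold. The median cell held 303 Fth1 UMIs per 10000 with PBS and 519 with ISO. Blvrb, which reduces biliverdin, measured 248 and 484 CPM.

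**Figure D3:**
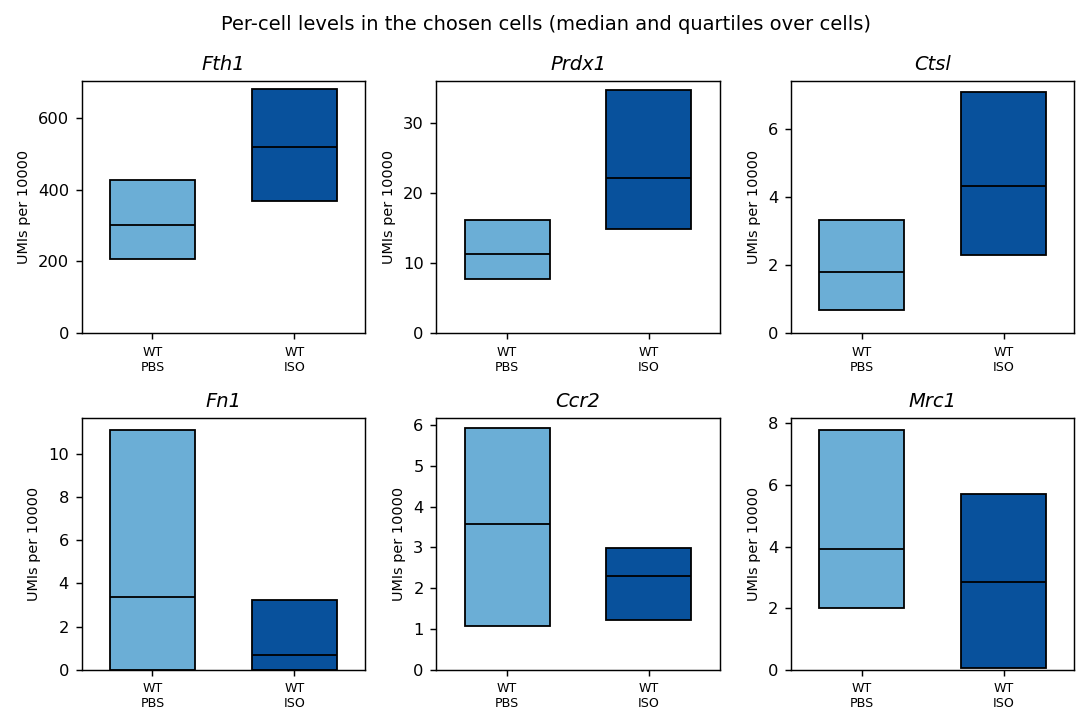
UMIs per 10000 per chosen cell for 6 genes in WT+PBS and WT+ISO; boxes span the quartiles over cells and the line is the median. Median Fth1, Prdx1 and Ctsl are higher in WT+ISO, and median Fn1, Ccr2 and Mrc1, a score gene, are lower there.

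Lysosome and lipid genes gave smaller ratios. Of 16 lysosome genes measured, 2 were at least 2-fold higher and none lower, with a median of 0.36. Ctsl, cathepsin L, measured 225 and 562 CPM, a ratio of 1.32 (1.12 to 1.52), and stood at 0.14 in all other cells of WT. The other was Gpnmb, where 1 cell gave 43.7% of the WT+ISO UMIs. Psap went the other way, from 2263 to 1850 CPM (-0.29). Of 7 lipid genes none was at least 2-fold lower and 1 was at least 2-fold higher, the fatty acid receptor Cd36 (25.7 to 96.7 CPM, with 30.6% of the WT+ISO UMIs in 1 cell). The sum of the lipid list went from 1915 to 2382 CPM, a log2 ratio of 0.32 that was -0.40 among C1q-positive cells. The ratio of the lysosome sum was 0.20, and -0.41 with the top 8% taken in each library.

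Some chemokine and protease genes were higher in WT+ISO. Of 10 chemokine genes measured 2, Cxcl3 and Ccl2, were at least 2-fold higher and none lower (median 0.49). The ratio of the list sum was 0.45, but 0.18 with the top 12% of cells and -0.40 with the top 8% taken in each library. Cxcl3, which draws neutrophils, measured 66.8 and 271 CPM, a ratio of 2.02 (1.70 to 2.35), and stood at 1.05 in all other cells of WT. Ccl6, the most abundant chemokine, measured 3577 and 4827 CPM, and Ccl3 124 and 249 CPM. For Ccl2 1 cell gave 32.2% of the WT+ISO UMIs. Ccl17 went the other way, from 321 to 196 CPM, of which 1 cell gave 93.2% with ISO. Mmp12 measured 1892 and 2996 CPM (0.66, 0.59 to 0.74), although it was lower with ISO in all other cells of WT (-0.86). Mmp8, collagenase 2, measured 692 and 1681 CPM (1.28, 1.17 to 1.39), and Ly6a, which encodes Sca-1, 133 and 355 CPM (1.42, 1.17 to 1.67). Both were also higher with ISO outside the range, at 0.78 and 0.82.

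Mgl2, Tgm2 and Asgr2 were lower in WT+ISO. Of 7 alternative activation genes measured 2, Mgl2 and Tgm2, were at least 2-fold lower and none higher, with a median of -0.40. The ratio of the list sum was -0.49, but -0.29 without cells of 5% or more neutrophil UMIs, -0.18 among C1q-positive cells, 0.13 with the top 12% of cells and 0.84 with the top 8% taken in each library, so the direction of the list depended on the choice of cells. Mgl2 measured 259 and 82.0 CPM, a ratio of -1.66 (-2.07 to -1.28). Tgm2, transglutaminase 2, measured 89.4 and 17.5 CPM (-2.36, -3.29 to -1.54). Asgr2 measured 298 and 26.9 CPM (-3.47, -4.19 to -2.83) and had the lowest ratio of the genes named by rule. A single cell gave 90% of the Asgr2 UMIs and 44.3% of the Mgl2 UMIs of WT+ISO, so the other cells there held fewer still. Chil3 measured 633 and 431 CPM.

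Receptors of the macrophage lineage split. Of 7 identity genes measured none was at least 2-fold higher and 2 were at least 2-fold lower, among them Mertk, with a median of -0.02. Mertk measured 47.3 and 17.5 CPM, a ratio of -1.44 (-2.40 to -0.59), and was also lower outside the range (-2.61). Csf1r measured 215 and 212 CPM (-0.02, -0.29 to 0.25), Adgre1 141 and 163 CPM (0.20, -0.12 to 0.52) and Trem2 181 and 211 CPM (0.22, -0.06 to 0.50). Mertk was thus lower with ISO while the intervals of Csf1r, Adgre1 and Trem2 of the same list held 0. Of 9 phagocytosis genes 1 was higher (Cd36) and 1 lower (Mertk), with a median of 0.02. Axl measured 104 and 71.2 CPM. The 4 Fc receptors measured had no gene past 2-fold, and Fcgr1, the high-affinity receptor for IgG, measured 94.5 and 53.7 CPM.

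Monocyte genes also split. Of 6 measured 2, Fn1 and F13a1, were at least 2-fold lower and none higher, with a median of -0.21. The ratio of the list sum was -0.28, but 0.27 with the top 8% taken in each library. It was -2.40 among C1q-positive cells, 4 of them with ISO, and -0.03 without its most abundant gene. Fn1, fibronectin, measured 632 and 265 CPM (-1.26, -1.48 to -1.04). F13a1, coagulation factor XIII A, measured 510 and 250 CPM (-1.03), and Ccr2 378 and 241 CPM (-0.65). In all other cells of WT Fn1, F13a1 and Ccr2 stood at -1.44, -1.29 and -0.71. Ly6c2 and Vcan went the other way in the chosen cells, with 276 and 399 CPM and 278 and 499 CPM. Fn1 and F13a1 were thus at least 2-fold lower in WT+ISO and Ccr2 lower by less than 2-fold, while 3 of the 6 stood above 0.

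The MHC class II presentation list was lower with ISO in sum, by an amount that depended on the choice of cells. Of 9 genes measured 1, H2-DMb2, was at least 2-fold lower and 1 stood above 0, with a median of -0.64 and a sum of 4612 and 3303 CPM. The ratio of the sums was -0.48, but -1.22 with cells chosen by the score of thinned cells, -1.14 with the top 12%, -1.89 with the top 8% taken in each library, -0.17 with the top 5% and 0.39 among C1q-positive cells, 4 of them with ISO. Cd74, the invariant chain, measured 2624 and 2038 CPM, H2-Aa 374 and 202 CPM, and H2-DMb2, of the peptide loading complex, 74.5 and 26.9 CPM. A single cell gave 71.3% of the H2-Aa UMIs of WT+ISO, so the level of the other cells there was lower still. In all other cells of WT H2-Aa stood at -1.42, whereas within cells high in MHC class II without C1q it stood at 0.94. The genes most specific to dendritic cells were too sparse to compare, with 1 of 12 measured.

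The cell cycle list was higher with ISO in sum, but near 0 when cells were chosen at matched depth. Of 11 measured 1, Tyms, which makes thymidylate, was at least 2-fold higher and all 11 stood above 0 (median 0.54). The list sum went from 893 to 1307 CPM (0.55, 0.43 to 0.66). This ratio was 0.03 with cells chosen by the score of thinned cells, 0.19 with the top 12%, 0.29 with the top 5%, -0.18 among C1q-positive cells and 1.00 with the top 8% taken in each library. Top2a, topoisomerase IIα, measured 82.7 and 164 CPM (0.99, 0.64 to 1.34), with 18.9% of its WT+ISO UMIs in 1 cell, and Mki67, a marker of dividing cells, 63.2 and 96.7 CPM (0.61, 0.17 to 1.05). Per cell, the median of the list was 3.31 UMIs per 10000 with PBS and 4.14 with ISO. In all other cells of WT Top2a stood at 0.09 and Mki67 at 0.07.

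**Figure D4:**
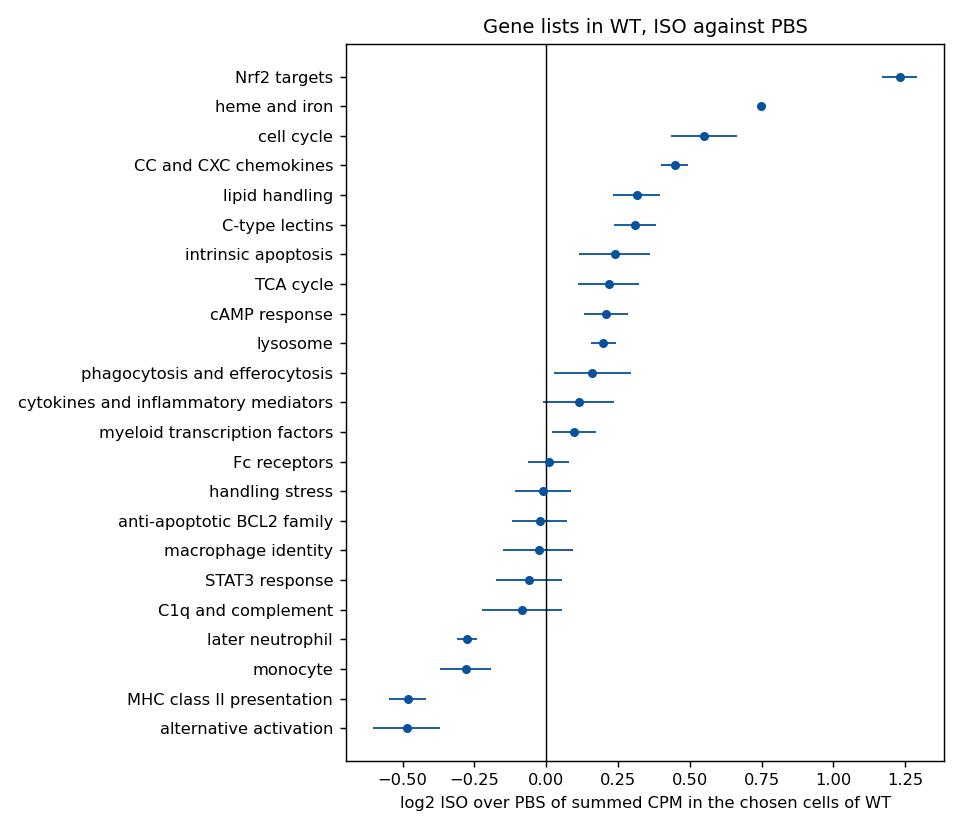
log2 ratio, ISO over PBS, of the summed CPM of each gene list in the chosen cells of WT, with exact 95% intervals for counting error; lists with at least 3 measured genes are shown. Nrf2 targets stand at 1.23, heme and iron at 0.75, cell cycle at 0.55, and MHC class II presentation and alternative activation at -0.48 and -0.49, of which alternative activation turned in sign with the top 12% of cells and the cell cycle and MHC class II lists among C1q-positive cells. With the top 8% taken in each library Nrf2 targets stood at 0.47 and heme and iron at 0.14.

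Lists near the pathways named by the study were measured in the same way. None of 7 cyclic AMP response genes passed 2-fold (median -0.18, although the list sum, led by Thbs1, stood at 0.21), and none of 8 STAT3 response genes (median -0.08). None of 15 genes of the TCA cycle passed 2-fold (median 0.26), with sums of 1191 and 1384 CPM. Of the anti-apoptotic BCL2 family none of 6 passed 2-fold (median -0.08), and of intrinsic apoptosis none of 6 (median 0.27). Such counts of 0 are close to the 0.829% and 1.11% of all genes past 2-fold. The ratios of these list sums differed among C1q-positive cells, of which WT+ISO had 4: there the TCA cycle stood at 0.055 against 0.22 in the whole range, cyclic AMP at 0.78 against 0.21, the BCL2 family at 0.76 against -0.02, intrinsic apoptosis at 0.59 against 0.24 and STAT3 at 0.43 against -0.06. With the top 8% taken in each library cyclic AMP stood at -0.36 and the BCL2 family at -0.75. Myeloid transcription factors summed to 2391 and 2557 CPM, led by Cebpb, with 1 of 9 at least 2-fold lower and none higher. Cytokines had none of 4 past 2-fold, complement none of 4, and C-type lectins 1 of 7 lower, Mgl2. Summed C-type lectins gave a ratio of 0.31, but -0.06 without its most abundant gene, -0.02 with the top 12% of cells and -0.52 with the top 8% taken in each library. That of phagocytosis was 0.16, but -0.12 with the top 12% and -0.75 with the top 8% in each library. In the interferon list 1 of 2 was lower, Ifi27l2a (85.8 to 33.6 CPM). Genes induced by handling had none of 5 past 2-fold, with sums of 1586 and 1575 CPM.

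Neutrophil transcripts were followed beside these ratios. The later neutrophil list summed to 13988 CPM with PBS and 11563 CPM with ISO in the chosen cells, led by S100a8, and the azurophil list to 96.1 and 71.2 CPM, led by Prtn3. Of 6 later neutrophil genes 1 was at least 2-fold higher, Mmp8, and 1 lower, Ngp, where 1 cell gave 40.3% of the WT+PBS UMIs. The Ngp ratio turned in sign with the top 5% (0.091), the top 12% (1.36) and the top 8% taken in each library (2.30). Among C1q-low cells it was -0.11. The sums were lower with ISO, but the median cell held 40.0 later neutrophil UMIs per 10000 with PBS and 58.7 with ISO, so the sum and the median cell differed in direction. The ratio of the later neutrophil sum was -0.27, but 0.13 as the mean of per-cell CPM, 0.47 without cells of 5% or more neutrophil UMIs, 0.71 with the top 12%, 1.74 with the top 8% taken in each library and -1.07 with cells chosen by the score of thinned cells. Among C1q-positive cells, 4 of them with ISO, it was -2.33. S100a8 and S100a9 in all other cells of WT stood at 0.15 and 0.14. Without cells of 5% or more neutrophil UMIs the ratios were 1.23 for the Nrf2 list, 0.75 for heme and iron, 0.53 for the cell cycle, -0.51 for MHC class II presentation and -0.29 for alternative activation.

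The genes with the largest ratios were set beside all other cells of WT. The 10 raised, which besides those above held Pla2g7, Rcbtb2, Procr and Clpp, all stood above 0 there as well. Pla2g7, which breaks down platelet-activating factor, measured 41.6 and 141 CPM and Procr, the protein C receptor, 34.4 and 95.4 CPM. The 10 lowered all stood below 0 in the other cells. Ptx3, the long pentraxin, which binds C1q, measured 50.3 and 13.4 CPM (-1.91, -3.01 to -0.97). Egln3, an oxygen-sensing hydroxylase, measured 185 and 56.4 CPM and Nt5e, which makes adenosine from AMP, 108 and 37.6 CPM. Stfa2l1, a stefin of neutrophils, measured 347 and 120 CPM. Of the 35 genes at least 2-fold higher in the range, 25 stood above 0 in the other cells of WT and 2 were at least 2-fold higher there, where 42.0% of the 4223 genes stood above 0. Of the 47 at least 2-fold lower, 41 stood below 0 there and 16 were at least 2-fold lower, where 58.0% of all stood below 0. Both sets of cells came from the same libraries, so the second is no replicate of the first. The make-up of the other cells also differed between the treatments, so their ratios are not those of any single cell type.

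**Figure D5:**
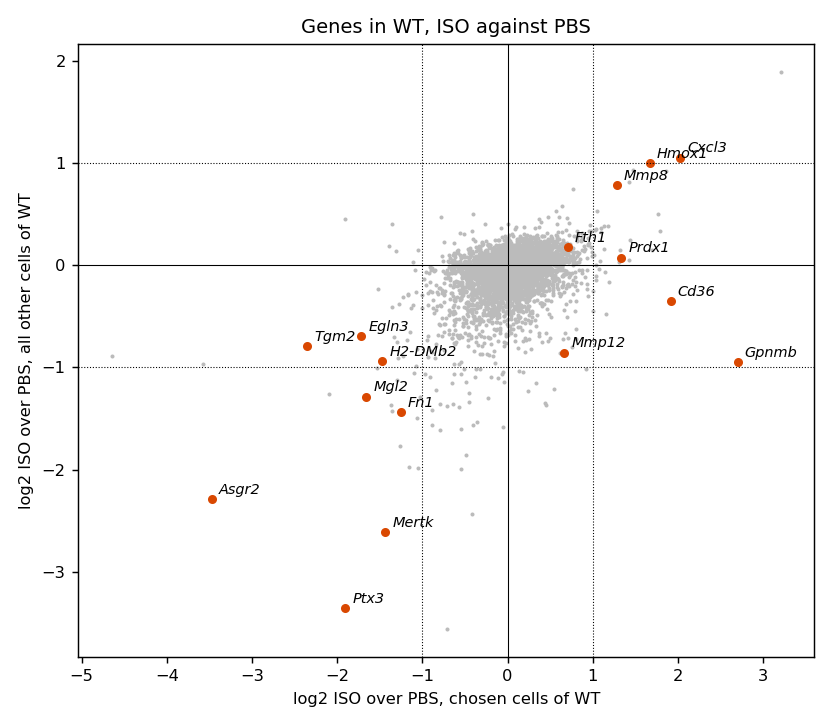
log2 ratio, ISO over PBS, in the chosen cells of WT (x axis) and in all other cells of WT (y axis); each point is a gene with at least 100 UMIs in the chosen cells, score genes left out, and dotted lines mark 2-fold. Cxcl3 (2.02 and 1.05) is past 2-fold higher and Asgr2 (-3.47 and -2.29) past 2-fold lower in both. Prdx1 (1.33 and 0.07) is past 2-fold in the chosen cells and not in the other cells pooled. Among WT cells high in MHC class II without C1q, Prdx1 stood at 0.53 and Asgr2 at -0.33. Among WT cells high in Ly6c2 and Ccr2 they stood at 0.61 and -3.43.

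Of the chosen cells 25.5% were C1q-positive with PBS and 8.70% with ISO, with intervals that overlapped. The ratios were therefore also taken among C1q-low cells alone, 102 and 42 cells. Prdx1 stood at 1.14, Gclm at 1.67, Hmox1 at 1.46, Fth1 at 0.59 and Ctsl at 1.28. Fn1 stood at -1.17, Mertk at -1.51, Mgl2 at -3.25, Tgm2 at -2.10 and H2-Aa at -1.25. Asgr2 was seen as 153 UMIs with PBS and 2 with ISO. These directions were therefore also seen without the C1q-positive cells, although this split did not match the libraries for Mrc1 or Pf4. Adgre1 stood at 0.39 (0.03 to 0.75) and Trem2 at 0.42 (0.10 to 0.75) among C1q-low cells, so both were higher there by more than counting error. Csf1r stood at -0.06 (-0.38 to 0.25).

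The 20 genes highest in the range over the rest were lower with ISO in 18 cases, where 43.5% of all 4223 genes were, and the exceptions were Mmp12 and Arhgap6. All 20 were also lower with ISO in all other cells of WT, where 58.0% of the 4223 genes were. Among those other cells, the range high in MHC class II without C1q went from 11.4% to 3.18% of kept cells. How far this change in make-up enters the ratios of the other cells was not tested. Of the 20, Fcrls, Rnf150 and Plxnb2 held under 100 UMIs in the WT libraries and so lie outside the 4223 genes. Slc7a2, an arginine transporter, measured 216 and 110 CPM, Sdc3, a syndecan, 59.6 and 24.2 CPM and Fcrls 37.0 and 12.1 CPM. Dst, dystonin, measured 195 and 138 CPM. These genes were chosen for their height in cells picked by the score, so their order over libraries is a description. Pdpn, podoplanin, measured 138 and 136 CPM and Plxdc2 698 and 609 CPM, so that not every gene of the range differed by much between the treatments.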

How the data were processed

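The 4 libraries were deposited as 10x matrices of UMI counts per gene and barcode, with 12 multiplexing tags beside 32285 genes. Per the labels the authors aligned the reads to mm10 with Cell Ranger 6.0.0 and used Seurat, while the matrix headers name cellranger 7.0.0; the counts deposited are raw. Groups followed the sample titles, since 1 treatment field names isoproterenol for all 4. Cells below 200 detected genes or above 10% mitochondrial UMIs were dropped, which left 9303 of 9525 barcodes. The number of animals behind a library is not given in the sources used here. Doublets were not called; tag shares and neutrophil UMIs are given instead.

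UMIs of the chosen cells were summed per library and divided by their total (CPM). Genes with at least 100 UMIs over the 2 libraries compared were measured, and a gene past 2-fold was counted. With 1 library per group no test or count model was run. Shares carry exact Clopper-Pearson intervals, CPM exact Poisson intervals and CPM ratios exact conditional binomial intervals. Named genes were the 10 with the largest and the 10 with the smallest ratio in WT among genes with a UMI in at least 10% of the chosen cells of 1 library and at most 20% of the UMIs of the higher library in 1 cell, plus, for chosen cells over the rest, the 20 largest folds among genes seen in at least 25% of chosen cells; score, mitochondrial, ribosomal, unnamed and sex-linked genes were left out. The comparison ranges were the 8% of cells highest for H2-Aa, H2-Ab1, H2-Eb1 and Cd74 without C1q UMIs, for Ly6c2 and Ccr2, and for Mpo, Elane, Prtn3 and Ctsg, each taken after the chosen cells and the ranges before it were left out. The members and the gene lists were chosen with earlier results of these data known. The other 2 libraries, 1 gene that the rule names and 1 listed gene are not reported here. Of 333 listed genes Clec7a and Mx1 were not matched. The steps were tested on simulated data. Analyses used Python 3.11.15, numpy 2.4.6, scipy 1.17.1 and matplotlib 3.10.9.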

Additional observations from a re-analysis of the deposited data

How the results depend on the processing

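Of 44 repeats of the share and of the counts past 2-fold, 32 stayed near the value reported. The share was lower with ISO in all 14 of its repeats, and its log2 ratio moved to -0.82 without Mrc1 in the score and to -0.84 with the top 12% of cells. The counts of genes at least 2-fold higher and lower with ISO moved from 35 and 47 as follows. With 200 UMIs per gene they were 15 and 21, and with 50 UMIs 85 and 105. Among C1q-positive cells, 4 of them in WT+ISO, they were 64 and 91. With the top 8% taken in each library they were 232 and 268, and with the top 12% of cells 88 were lower. Median-of-ratios scaling, which moved the median gene from 0.05 to -0.06, left 23 higher. The cause of these moves was not tested beyond the change in cells or genes counted. Of 451 repeats of 35 gene and list values past 2-fold, 381 stayed past 2-fold and 6 changed sign. Ngp went from -1.91 to 0.091 with the top 5%, 1.36 with the top 12% and 2.30 with the top 8% in each library. Ccl2 went to -0.13 with the top 8% in each library, Ifi27l2a to 0.11 among C1q-positive cells and Tyms to -0.22 with the top 5%. For all list sums together 146 repeats moved by more than the counting error and 176 did not, and several sums under 2-fold changed sign. The repeats among C1q-low cells and without cells of a leading tag under 90% were added after seeing the data. No paired analysis was possible because a group holds a single library, and for the same reason no library could be left out. Depth limits WT+ISO most: its 46 cells hold 744204 UMIs, and intervals omit the spread between cells and cultures. Genes under 100 UMIs were left out of the main counts past 2-fold. Some values printed for single genes rest on fewer UMIs, such as Fcrls (72 and 9 UMIs) and Mertk among C1q-low cells (63 and 10).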

Other observations

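Xist measured 387 and 360 CPM over all kept cells of WT+PBS and WT+ISO, and 424 and 446 CPM in the chosen cells. The Y-linked Ddx3y had 7 UMIs over all kept cells of each, and Eif2s3y had 0 in both.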
